A study of Mus musculus with 2 samples.

Results

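The FGF receptors Fgfr1 and Fgfr4, the feedback inhibitors Spry1, Spry2, Spry4 and Spred1, the ERK phosphatase Dusp6 and the transcription factors Etv4 and Etv5 were followed in single mouse muscle stem cells, the resident stem cells of skeletal muscle. These 9 genes were chosen by name with earlier results of these data known, and 8 of them were read out of 21216 gene identifiers. Shares of members set beside shares of all genes are therefore a description only. Spry4 was not analysed here. The groups were 121 cells cultured for 96 h in 10 mM galactose, 120 cells cultured in 5 mM glucose (low glucose), 113 cells cultured in 25 mM glucose (high glucose) and 102 cells taken straight from isolation (freshly isolated), for which the labels use the word quiescent. Every culture medium was DMEM with 2.5 ng/ml bFGF, 1 mM pyruvate, chick embryo extract at 0.05% and sera of horse and fetal calf at 10% each, so the cultured cells had all met an added FGF and there was no culture without it. Galactose and low glucose cells shared plate 2, while high glucose and freshly isolated cells shared plate 1. Cells were sorted by FACS into the wells of the plates, and the sources used here do not give the sort gate, the number of animals or their strain, sex and age.

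Fibroblast growth factors bind receptor tyrosine kinases together with heparan sulphate chains, and the receptor passes the signal through adaptor proteins and RAS to the kinase ERK. ERK activity switches on genes that restrain the same route: Sprouty and Spred proteins act on the path to RAS and RAF, and DUSP6 removes phosphate from ERK. In muscle stem cells FGF signalling favours activation and division, and Sprouty1 is known as a brake linked to quiescence.

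Each condition was 1 library, so no test between conditions was run, and every interval below covers counting error only. The pools held 2035682, 1734279, 887611 and 284109 gene counts in galactose, low glucose, high glucose and freshly isolated cells, and the median cell held 14496, 13371, 6747 and 2536. A level is given as CPM, counts scaled to a pool total of 1e6 gene counts, or per 1000 counts of the ERCC spike-ins, synthetic RNAs added to each well. Gene counts per spike-in count had a median of 57.0 over high glucose cells and 18.3 over freshly isolated cells, so a gene can be lower in CPM and not lower per spike-in count. Each condition filled its own 6 plate rows, the plates used 200 of 257 distinct well barcodes in common, and row position, and across plates the plate itself, cannot be told apart from the condition. All 10 listed markers of muscle stem cells and myoblasts had counts in every condition, summing to 2097, 2074, 1946 and 6167 CPM in the same order. Most of the sum in freshly isolated cells came from Myod1 and Sdc4. Myod1 stood at 871, 801, 705 and 2446 CPM and Sdc4 at 308, 344, 436 and 2094 CPM. Myf5 differed less, at 366, 370, 286 and 394 CPM. Pax7 stood at 66.3, 54.8, 56.3 and 119.7 CPM, while Cd34 went the other way at 258, 287, 281 and 134 CPM. Markers of other cells also differed: the 5 fibro-adipogenic markers analysed summed to 31.4, 39.2, 141 and 1126 CPM, the 7 endothelial ones to 4.42, 6.34, 45.1 and 105.6 CPM, and the 7 smooth muscle and pericyte ones to 62.4, 75.0, 231 and 616 CPM. Dcn was at 0 in both plate 1 conditions, and Cldn5 and Cspg4 were at 0 in freshly isolated cells, where Col3a1 alone had 873 CPM. The 3 glial markers analysed summed to 5.40, 3.46, 6.76 and 21.1 CPM and the 3 of mature myofibres to 9.82, 9.23, 22.5 and 31.7 CPM. The 3 immune markers analysed went otherwise, at 8.84, 2.88, 7.89 and 3.52 CPM, as did the tenocyte marker Scx at 9.33, 9.80, 5.63 and 0 CPM. Wells in which 3 or more markers of another type met numbered 1, 1, 9 and 14 in the same order.

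Promoter sequence is shown for the members whose levels differed most between high glucose and freshly isolated cells (Fgfr4, Spry1, Spred1) and for Dusp6, the measured member that did not pass the fold in that comparison. The 250 bases before the start site are from RefSeq on GRCm38.p6, written in the direction of the gene, and capitals mark the letters AGGAAG or CCGGAA, core letters bound by ETS factors such as Etv4 and Etv5, on either strand.
Fgfr4 (chr13:55152568-55152817, plus strand): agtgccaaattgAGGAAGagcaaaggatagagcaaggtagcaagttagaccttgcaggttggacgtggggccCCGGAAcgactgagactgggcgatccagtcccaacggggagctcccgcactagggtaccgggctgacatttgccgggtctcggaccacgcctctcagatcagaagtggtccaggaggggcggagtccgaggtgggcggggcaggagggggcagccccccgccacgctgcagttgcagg
Spry1 (chr3:37639697-37639946, plus strand): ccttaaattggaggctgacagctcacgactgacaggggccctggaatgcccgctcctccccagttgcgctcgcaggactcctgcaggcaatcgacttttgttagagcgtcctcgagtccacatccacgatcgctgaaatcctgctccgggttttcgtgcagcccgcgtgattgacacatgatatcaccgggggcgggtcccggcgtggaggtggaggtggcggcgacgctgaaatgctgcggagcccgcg
Spred1 (chr2:117120821-117121070, plus strand): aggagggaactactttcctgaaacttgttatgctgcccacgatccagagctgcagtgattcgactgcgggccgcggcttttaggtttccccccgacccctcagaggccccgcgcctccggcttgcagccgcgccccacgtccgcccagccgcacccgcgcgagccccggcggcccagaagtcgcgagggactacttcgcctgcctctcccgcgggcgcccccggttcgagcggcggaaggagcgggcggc
Dusp6 (chr10:99262981-99263230, plus strand): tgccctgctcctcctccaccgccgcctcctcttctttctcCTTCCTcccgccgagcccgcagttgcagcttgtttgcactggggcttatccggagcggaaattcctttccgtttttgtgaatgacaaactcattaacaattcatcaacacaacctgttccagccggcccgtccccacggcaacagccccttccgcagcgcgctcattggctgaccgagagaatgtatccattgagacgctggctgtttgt
Counting -1 as the base before the start site, the Fgfr4 window held AGGAAG from -238 and CCGGAA from -178. The Dusp6 window held AGGAAG on the opposite strand from -210, where CTTCCT is printed. In all, 7 windows in 6 members were searched, with a single window for each of Fgfr4, Spry1, Spry2, Spred1 and Dusp6 and a pair for Etv5. AGGAAG was in 2 of these 7 windows and in 29.5% of 32851 windows of all genes, and CCGGAA in 1 of 7 and in 12.0% of all. TGANTCA, the letters of AP-1, and TGACGTCA, the cAMP response element, were in 0 of the 7 windows and in 6.75% and 1.55% of all windows. A match describes letters only and is no evidence of binding.

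Compared with freshly isolated cells, cells cultured for 96 h in high glucose held a smaller share of Fgfr4, Spry1, Spred1 and Spry2 transcripts, while the ratio of Dusp6 lay within the fold used here. A gene was called measured where the mean CPM of both pools was at least 10 and past the fold where the ratio of the pools was at least 1.5 in either direction. Of the 8 members analysed, 6 were measured, each with more than 10 CPM in both pools. Of these, 5 were lower, 0 were higher and 1 was neither, where 20.9% of 8882 measured genes were lower and 40.9% were higher. The median log2 ratio was -1.32 over the 6 members and 0.34 over all measured genes. The share of higher genes among all genes past the fold was 66.2% in CPM, 53.6% with TMM factors, 51.1% with median-of-ratios factors and 96.3% per spike-in count.

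Fgfr4, the FGF receptor found mainly in muscle stem cells and myoblasts among muscle cells, had 24 counts (27.0 CPM, 95% interval 17.3 to 40.2) in high glucose and 44 counts (155 CPM, 113 to 208) in freshly isolated cells. By plate row it had a lowest, median and highest level of 0, 27.1 and 40.9 CPM in high glucose and of 0, 168 and 228 CPM in freshly isolated cells. The ranges overlapped only because row D of the freshly isolated cells held 0 Fgfr4 counts in 15 cells, and the other 5 rows, from 137 to 228 CPM, lay above every high glucose row. The ratio of the pools was 0.175 (0.102 to 0.293). Fgfr4 was also the measured member that stayed lower per spike-in count, at 1.63 per 1000 in high glucose against 3.04 in freshly isolated cells (ratio 0.536, 0.312 to 0.900).

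Fgfr1, a main FGF receptor of myoblasts, was near the limit of detection and did not pass the minimum, with 7 counts (7.89 CPM, 3.17 to 16.2) in high glucose and 3 counts (10.6 CPM, 2.18 to 30.9) in freshly isolated cells. The ratio was 0.747 with an interval of 0.171 to 4.48, so no difference was detectable at this depth. Fgfr1 had 6 counts (2.95 CPM) in galactose and 4 counts (2.31 CPM) in low glucose. An overlapping gene on the opposite strand, Gm16159, had 0 counts in all 4 pools.

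Spry1, the Sprouty inhibitor best known in quiescent muscle stem cells, had row levels of 104 (lowest), 128 (median) and 158 (highest) CPM in high glucose and of 105.6, 304 and 972 CPM in freshly isolated cells. The freshly isolated rows spread widely: row A held 972, row C 595 and row D 105.6 CPM, and row D fell inside the range of the high glucose rows. Over all rows the pool stood at 128 CPM (106 to 154) in high glucose against 408 CPM (337 to 490) in freshly isolated cells, a ratio of 0.315 (0.241 to 0.411). Leaving out each plate row in turn kept the ratio between 0.282 and 0.393. Gm42922, which overlaps Spry1 on the opposite strand, had 0 counts in all 4 pools.

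Part of the Spry1 level in freshly isolated cells came from few cells. A single cell in row A held 14 Spry1 counts among its 2040 gene counts, and the top 3 cells held 33 of the 116 counts (28.4%). Without these 3 cells the pool of freshly isolated cells stood at 300.1 CPM, and in high glucose at 117 CPM without its own top 3. In freshly isolated cells the top 3 share was larger for Dusp6 (46.7% of 15 counts) and Etv5 (30.8% of 13 counts). For the other measured members it was smaller. Without the top 3 cells of each pool Dusp6 stood at 50.3 CPM in high glucose and 29.1 CPM in freshly isolated cells. In a mean over 20 random draws of 1000 counts per cell, the variance of Spry1 over its mean was 2.61 in freshly isolated cells, where counting alone gives about 1. In high glucose it was 1.16, and the other measured members lay between 0.971 and 1.11 in both conditions. Their thinned means were at most 0.274 counts per cell, so values near 1 cannot exclude a spread beyond counting. Without thinning, Spry1 had 4.21 among freshly isolated cells and 1.28 among high glucose cells. The other measured members then ranged from 1.04 (Etv5) to 1.67 (Dusp6), each among freshly isolated cells. These unthinned values also hold the differences in depth between cells.

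Spred1, a Sprouty-related inhibitor of RAF activation, was the member whose rows separated fully. It had 81.9, 93.0 and 120 CPM (lowest, median and highest row) in high glucose and 158, 253 and 468 CPM in freshly isolated cells. Every high glucose row lay below every freshly isolated row in CPM. The share of all measured genes whose rows separate is not given, here or below, so row separation only describes the members. The pool stood at 95.8 CPM (76.5 to 118) in high glucose against 289 CPM (230 to 358) in freshly isolated cells, a ratio of 0.332 (0.242 to 0.455).

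Spry2, the second Sprouty gene read here, had 25.3, 39.7 and 66.5 CPM over the high glucose rows and 26.4, 72.1 and 167 CPM over the freshly isolated rows. The row ranges overlapped. The pool held 37 counts (41.7 CPM, 29.4 to 57.5) in high glucose against 24 (84.5 CPM, 54.1 to 126) in freshly isolated cells, a ratio of 0.493 (0.287 to 0.862). Dusp6, which acts on ERK itself, had 29.2, 64.7 and 82.3 CPM over the high glucose rows and 0, 48.1 and 123 CPM over the freshly isolated rows. These ranges overlapped too. The pool held 52 counts (58.6 CPM, 43.8 to 76.8) in high glucose against 15 (52.8 CPM, 29.5 to 87.1) in freshly isolated cells, a ratio of 1.11 (0.615 to 2.12). The Dusp6 interval includes changes past 1.5-fold in either direction, and without row C of the freshly isolated cells, the row with most Dusp6, the ratio was 1.66.

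Etv5, an ETS factor whose gene is switched on by ERK, had 19 counts (21.4 CPM, 12.9 to 33.4) in high glucose and 13 counts (45.8 CPM, 24.4 to 78.2) in freshly isolated cells. Its rows ran from 5.98 to 37.7 CPM in high glucose and from 19.5 to 69.1 CPM in freshly isolated cells and overlapped. The ratio of 0.468 passed the fold, but its interval (0.219 to 1.03) reached 1. Etv4, a close relative of Etv5, had 2 counts in high glucose and 0 counts in freshly isolated cells. The count of 0 allows up to 10.6 CPM (3 counts of the pool), and no fold is given.

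**Figure D1:**
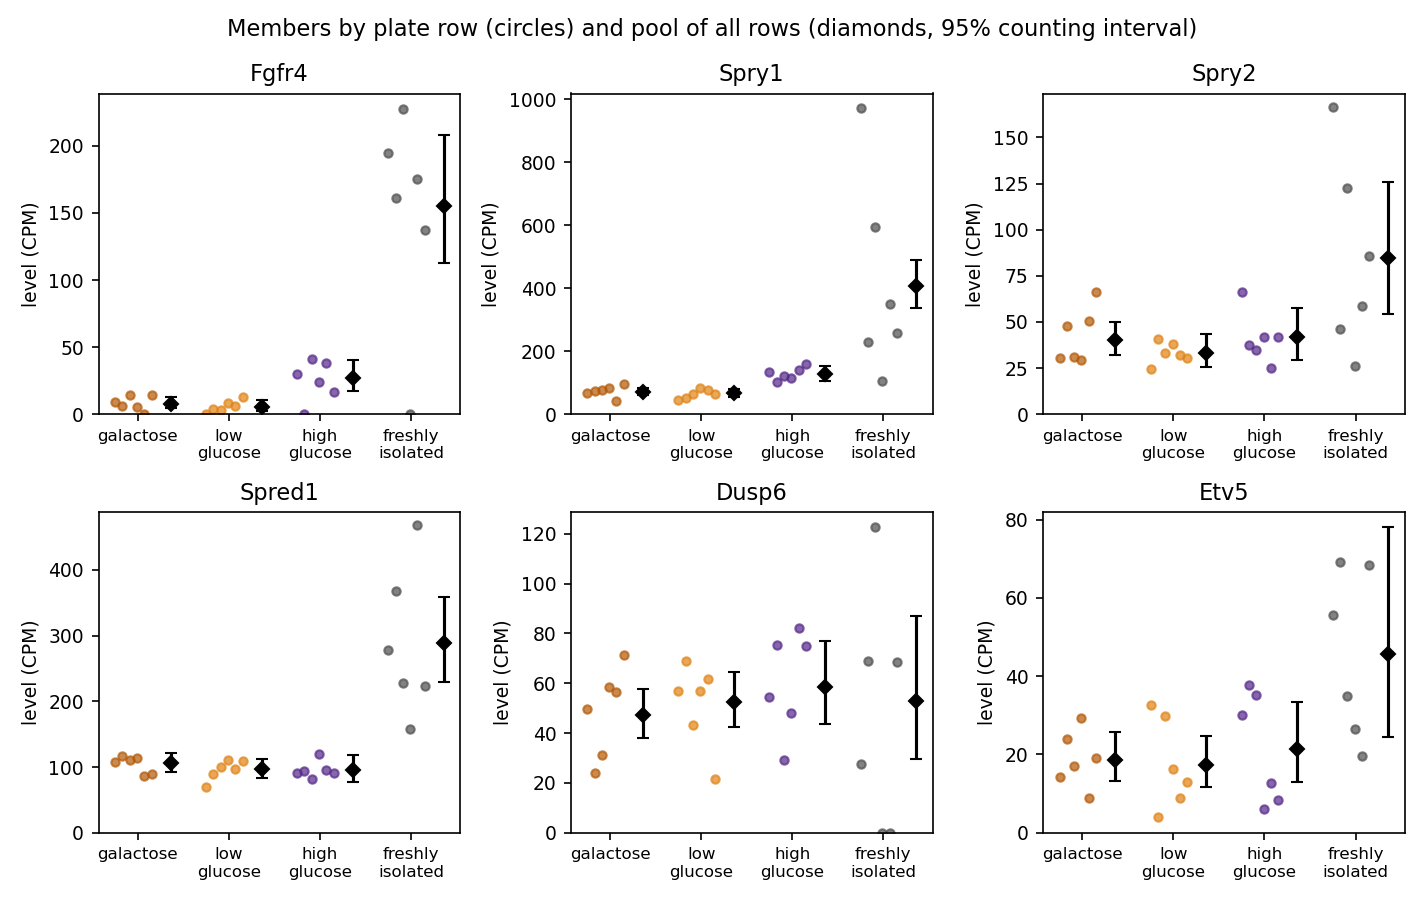
Level of the 6 members measured between high glucose and freshly isolated cells, in CPM (vertical axis from 0, scale set per gene), for galactose, low glucose, high glucose and freshly isolated cells. Circles are single plate rows, 6 per condition, and black diamonds are the pool of all rows with its 95% counting interval. Spred1 rows in high glucose (81.9 to 120 CPM) all lie below the freshly isolated rows (158 to 468 CPM), while 1 freshly isolated row has no Fgfr4.

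The directions depended on the scale. Scaling by spike-in counts moved the median log2 ratio of all measured genes by 1.60, and 89.5% of genes were then higher in high glucose and 3.43% lower. On this scale 2 of the 6 measured members were higher, 1 was lower and 3 were neither. Spry1 stood at 7.74 per 1000 spike-in counts in high glucose and at 8.01 in freshly isolated cells (ratio 0.965, 0.739 to 1.26). Spred1 stood at 5.77 in high glucose against 5.67 in freshly isolated cells (1.02, 0.743 to 1.40), and Etv5 at 1.29 in high glucose against 0.898 in freshly isolated cells (1.44, 0.673 to 3.16). Spry2 was higher at 2.51 in high glucose against 1.66 in freshly isolated cells, with an interval that included 1 (1.51, 0.882 to 2.65). Dusp6 was higher at 3.53 in high glucose against 1.04 in freshly isolated cells (3.40, 1.89 to 6.51). Fewer cells with a transcript and less transcript per cell cannot be told apart in these pools.

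**Figure D2:**
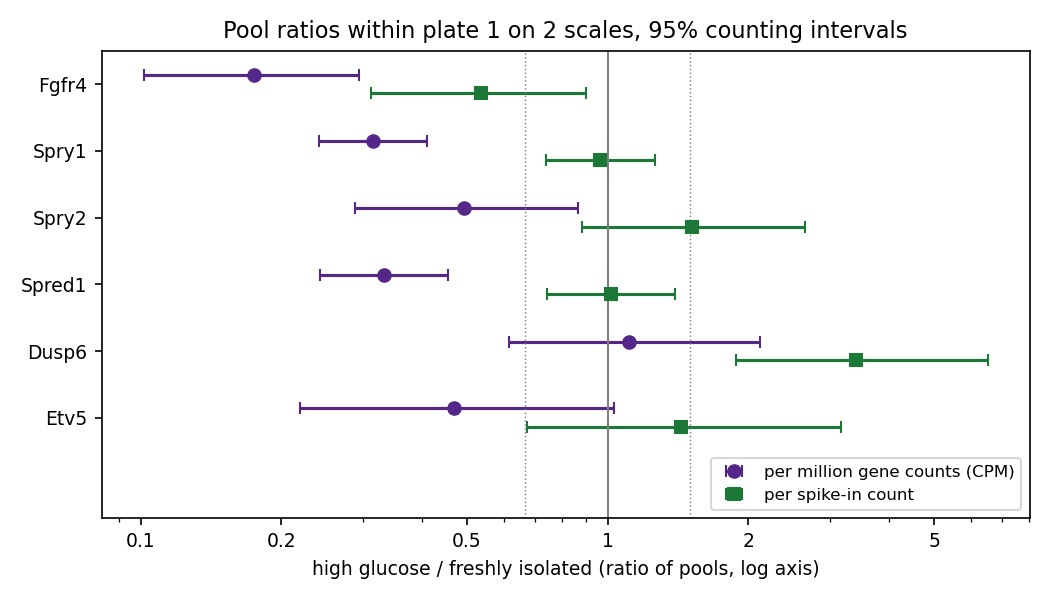
Ratio of the high glucose pool to the freshly isolated pool for 6 members (horizontal log axis), in CPM (circles) and per spike-in count (squares). Bars are 95% counting intervals, the solid line marks a ratio of 1 and the dotted lines a fold of 1.5. Fgfr4 stays below 1 on both scales (0.175 and 0.536), and Dusp6 lies at 1.11 and 3.40.

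Marker sums of some other cell types were higher in freshly isolated cells than in high glucose, and those of immune cells and tenocytes were lower, as given above. Without the 25 wells defined above, the CPM ratios of high glucose to freshly isolated cells were 0.170 for Fgfr4, 0.284 for Spry1, 0.316 for Spred1, 0.455 for Spry2, 0.383 for Etv5 and 1.02 for Dusp6. As before 5 members were lower, where 21.3% of 8878 genes were lower and 41.1% were higher.

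The share of cells with a count followed the pools once depth was made equal. It comes from the same counts, and at equal depth most cells with a count held a single one, so it is no separate evidence. Each cell was thinned to 1000 gene counts, and the share is the expectation over all random draws, with an exact binomial interval around the nearest whole number of cells. Fgfr4 was then seen in 4.39% of high glucose cells (1.47 to 10.1%) and in 14.3% of freshly isolated cells (8.47 to 23.1%). Spry1 was seen in 14.8% of high glucose cells (9.10 to 23.2%) and in 24.5% of freshly isolated cells (16.5 to 34.0%). Spred1 was seen in 9.40% of high glucose cells (5.01 to 16.9%) and in 23.4% of freshly isolated cells (15.7 to 33.0%). The intervals of high glucose and freshly isolated cells overlapped for all 3 genes. In a single random draw, made first, Spred1 was seen in 19.6% of high glucose cells and 22.5% of freshly isolated cells. Without thinning, the order was reversed for Spry1, with a count in 56.6% of high glucose cells and 49.0% of the shallower freshly isolated cells.

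A count of at least 1 of the 4 inhibitors Spry1, Spry2, Spred1 and Dusp6 was found in 29.9% of high glucose cells and 49.2% of freshly isolated cells at 1000 counts, and in 86.7% of high glucose cells and 78.4% of freshly isolated cells without thinning. These shares were 23.7% in galactose and 22.0% in low glucose at 1000 counts, and 97.5% in galactose and 91.7% in low glucose without thinning. Within a condition the members showed little relation over cells. Over the 15 pairs of the 6 genes Fgfr4, Spry1, Spry2, Spred1, Dusp6 and Etv5, Spearman's rho of the thinned counts lay between -0.038 and 0.051 in high glucose (112 cells) and between -0.059 and 0.128 in freshly isolated cells (102 cells). Counts this sparse leave little room for a relation to be seen.

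**Figure D3:**
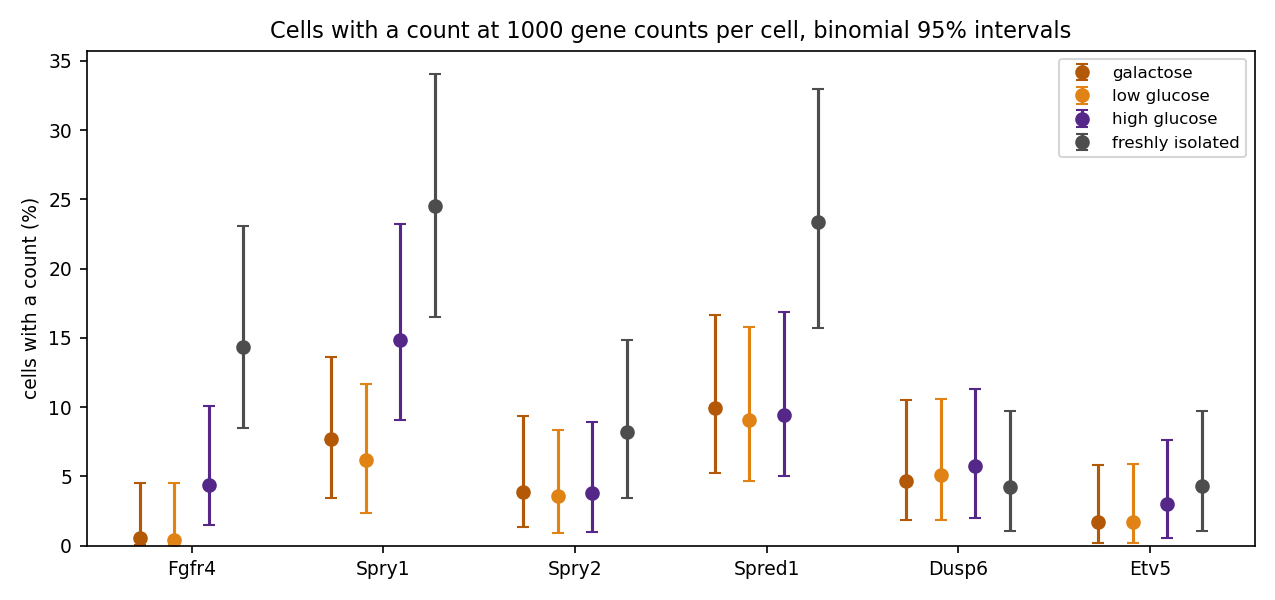
Share of cells with at least 1 count (vertical axis, percent, from 0) after thinning every cell to 1000 gene counts, for 6 members and 4 conditions. Points are expectations over all draws and bars are exact binomial 95% intervals. Freshly isolated cells have the highest point for Fgfr4 (14.3%), Spry1 (24.5%) and Spred1 (23.4%).

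Cells cultured in galactose and in low glucose, side by side on plate 2, showed no measured member past the fold. Of the 8 members 5 were measured and 0 passed 1.5-fold in either direction, where 5.88% of 8689 measured genes did. The median log2 ratio was 0.11 over the 5 members and 0.01 over all measured genes. Spry1 had 41.7, 75.5 and 94.9 CPM (lowest, median and highest row) in galactose and 44.7, 64.2 and 84.0 CPM in low glucose, with pools of 71.7 CPM in galactose and 66.3 CPM in low glucose (ratio 1.08, 0.841 to 1.39). Spred1 had 86.3, 109 and 116 CPM over the galactose rows and 69.1, 98.1 and 111 CPM over the low glucose rows (pool ratio 1.09, 0.887 to 1.34). The rows overlapped for every member analysed.

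The other measured members had wider intervals. Spry2 stood at 40.3 CPM in galactose and 33.4 CPM in low glucose (1.20, 0.850 to 1.72), Dusp6 at 47.2 CPM in galactose and 52.5 CPM in low glucose (0.899, 0.668 to 1.21), and Etv5 at 18.7 CPM in galactose and 17.3 CPM in low glucose (1.08, 0.651 to 1.80). For Spry1, Spred1 and, at its limit, Dusp6 the interval of the ratio lay inside 1.5-fold in both directions, while those of Spry2 and Etv5 reached past it. Fgfr4 fell under the minimum here, with 16 counts (7.86 CPM) in galactose and 10 counts (5.77 CPM) in low glucose (ratio 1.36, 0.582 to 3.36). Etv4 had 9 counts in galactose and 2 in low glucose (ratio 3.83, 0.794 to 36.5), also under the minimum.

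Comparisons across plates mix the medium with the plate, and those with freshly isolated cells share the same 102 cells as control. Against them 5 of 6 measured members were lower in galactose, where 22.0% of 8800 genes were, and 5 of 6 in low glucose, where 22.2% of 8769 genes were. Fgfr4 passed the minimum in both only through its level in freshly isolated cells and so had to differ. Of the other 5 measured members 4 were lower in each medium. Its ratio was 0.0508 (0.0267 to 0.0917) in galactose and 0.0372 (0.0167 to 0.0751) in low glucose. Spry1 had ratios of 0.176 (0.137 to 0.226) in galactose and 0.162 (0.124 to 0.212) in low glucose, and Spred1 of 0.366 (0.282 to 0.478) in galactose and 0.336 (0.256 to 0.443) in low glucose. For Spry1 and Spred1 every galactose and low glucose row lay below every freshly isolated row in CPM.

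Per spike-in count most genes were higher than in freshly isolated cells, 85.0% of 8376 in galactose and 84.5% of 8283 in low glucose, and 5.36% in galactose and 5.44% in low glucose were lower. Spry1 stood at 3.72 in galactose, 3.34 in low glucose and 8.01 per 1000 spike-in counts in freshly isolated cells, and Fgfr4 at 0.408 in galactose, 0.290 in low glucose and 3.04 in freshly isolated cells. On this scale 2 of 6 measured members were lower in each medium, Spry1 and Fgfr4. Fgfr4 again passed the minimum only through its level in freshly isolated cells. Dusp6 was higher, with ratios of 2.36 (1.36 to 4.38) in galactose and 2.55 (1.47 to 4.74) in low glucose. The intervals of the other 3 included 1: Spry2 had ratios of 1.26 in galactose and 1.02 in low glucose, Spred1 of 0.967 in galactose and 0.861 in low glucose, and Etv5 of 1.08 in galactose and 0.970 in low glucose.

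Spry1 and Fgfr4 also differed past the fold between the plate 2 media and high glucose. Fgfr4 was measured only through its level in high glucose and so had to differ. Of the other 5 measured members 1, Spry1, was lower in galactose than in high glucose, where 16.6% of 8894 genes were, and it was also the 1 lower in low glucose, where 15.9% of 8852 genes were. Spry1 stood at 71.7 CPM in galactose, 66.3 CPM in low glucose and 128 CPM in high glucose. Its ratio to high glucose was 0.558 (0.434 to 0.720) in galactose and 0.516 (0.395 to 0.675) in low glucose. Every Spry1 row in galactose (41.7 to 94.9 CPM) and low glucose (44.7 to 84.0 CPM) lay below the lowest high glucose row (104 CPM), and the rows also separated per spike-in count. Fgfr4 had ratios of 0.291 (0.144 to 0.570) in galactose and 0.213 (0.0910 to 0.463) in low glucose. Spred1 did not differ past the fold, at 105.6 CPM in galactose and 96.9 CPM in low glucose against 95.8 CPM in high glucose.

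In CPM the order over the 4 conditions was the same for Fgfr4 and Spry1, with low glucose lowest, then galactose, high glucose and freshly isolated cells. Low glucose and galactose were neighbours whose rows overlapped for both genes, and only for Spry1 did the rows of galactose and high glucose separate. For Spred1 and Spry2 freshly isolated cells were highest, and the rows of the 3 cultures overlapped. For Dusp6 all 4 conditions overlapped, from 47.2 CPM in galactose to 58.6 CPM in high glucose. The galactose, low glucose and high glucose pools of Etv5 lay between 17.3 and 21.4 CPM, below 45.8 CPM in freshly isolated cells, with overlapping rows.

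In CPM, the rest of the pathway differed in both directions between high glucose and freshly isolated cells. Over all lists below, 9 of 62 measured genes were higher and 26 were lower. Of all 8882 measured genes 40.9% were higher and 20.9% were lower. Of 8 FGF ligands analysed 0 were measured, and Fgf11, an intracellular FGF, had 1 count in high glucose against 2 in freshly isolated cells. Among 7 measured receptors and co-receptors 2 were higher, 3 were lower and 2 were neither. Sdc4, a heparan sulphate carrying co-receptor and known marker of muscle stem cells, had 436 CPM in high glucose against 2094 CPM in freshly isolated cells (ratio 0.208, 0.183 to 0.237). Gpc1 and Gpc4, glypicans that also carry heparan sulphate, were higher by the fold, with intervals that included 1. Gpc1 had 56.3 CPM in high glucose against 31.7 CPM in freshly isolated cells, and Gpc4 had 53.0 CPM in high glucose against 28.2 CPM in freshly isolated cells. Of 7 heparan sulphate enzymes 4 were lower, 3 were neither and 0 were higher. Sulf1, a sulphatase that trims heparan sulphate outside the cell, had 12.4 CPM in high glucose against 253 CPM in freshly isolated cells (0.0489, 0.0234 to 0.0928), while Sulf2 had 55.2 CPM in high glucose against 38.7 CPM in freshly isolated cells (1.43, 0.731 to 3.04).

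The relay from receptor to ERK was mostly within the fold, with 3 of 18 measured genes higher, 4 lower and 11 neither, and a median log2 ratio of -0.06. The kinases that phosphorylate ERK differed in opposite directions in CPM, though not per spike-in count: Map2k2 had 139 CPM in high glucose against 45.8 CPM in freshly isolated cells (3.03, 1.71 to 5.85) and Map2k1 had 148 CPM in high glucose against 285 CPM in freshly isolated cells (0.518, 0.389 to 0.692). Frs2, the adaptor that binds FGF receptors, had 40.6 CPM in high glucose against 35.2 CPM in freshly isolated cells. Grb2, the adaptor that recruits the RAS activator SOS, had 126 CPM in high glucose against 194 CPM in freshly isolated cells (0.652, 0.468 to 0.917).

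The list of other inhibitors, which also holds proteins that bind FGF receptors, was divided as well, with 3 of 12 higher, 4 lower and 5 neither (median -0.08). Errfi1, an inhibitor of the EGF receptor, had 416 CPM in high glucose against 3140 CPM in freshly isolated cells (0.132, 0.117 to 0.150). Dusp5, a nuclear ERK phosphatase, was higher at 320.0 CPM in high glucose against 162 CPM in freshly isolated cells (1.98, 1.44 to 2.76), and Rasa1, a RAS inactivator, at 136 CPM in high glucose against 70.4 CPM in freshly isolated cells (1.94, 1.20 to 3.28). The remaining higher gene, Flrt2, is a membrane protein of a family that binds FGF receptors and is not taken as an inhibitor here. Flrt2 had 81.1 CPM in high glucose against 28.2 CPM in freshly isolated cells (2.88, 1.39 to 6.93).

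Among 12 other genes induced by or acting downstream of ERK, 4 were within the fold, 7 were lower and 1 was higher (median -0.75). Egr1, an immediate early transcription factor, had 261 CPM in high glucose against 2270 CPM in freshly isolated cells (0.115, 0.0987 to 0.134), Jun had 586 CPM in high glucose against 1119 CPM in freshly isolated cells (0.523, 0.454 to 0.604), and Myc had 1000.4 CPM in high glucose against 1517 CPM in freshly isolated cells (0.659, 0.587 to 0.742). Fosl1, another immediate early factor, had 1026 CPM in high glucose against 1436 CPM in freshly isolated cells and did not pass the fold. Of 6 other receptor tyrosine kinases 4 were lower and 2 were neither (median -1.22). Egfr had 109 CPM in high glucose against 275 CPM in freshly isolated cells (0.398, 0.292 to 0.543), and Met, the receptor for hepatocyte growth factor, had 207 CPM in high glucose against 155 CPM in freshly isolated cells (1.34, 0.959 to 1.90). Per spike-in count the ratios of Sdc4 (0.639), Sulf1 (0.150), Errfi1 (0.406) and Egr1 (0.353) stayed below 1, while those of Map2k2 (9.29), Map2k1 (1.59), Jun (1.61), Myc (2.02) and Egfr (1.22) lay above it. Between galactose and low glucose, 2 of 58 measured genes of these lists passed the fold (3.45%, against 5.88% of all measured genes), both lower: Frs2 with 33.9 CPM in galactose and 52.5 CPM in low glucose (0.646, 0.465 to 0.893) and Fgfrl1, a receptor without a kinase domain, with 7.86 CPM in galactose and 12.7 CPM in low glucose (0.620, 0.304 to 1.24).

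**Figure D4:**
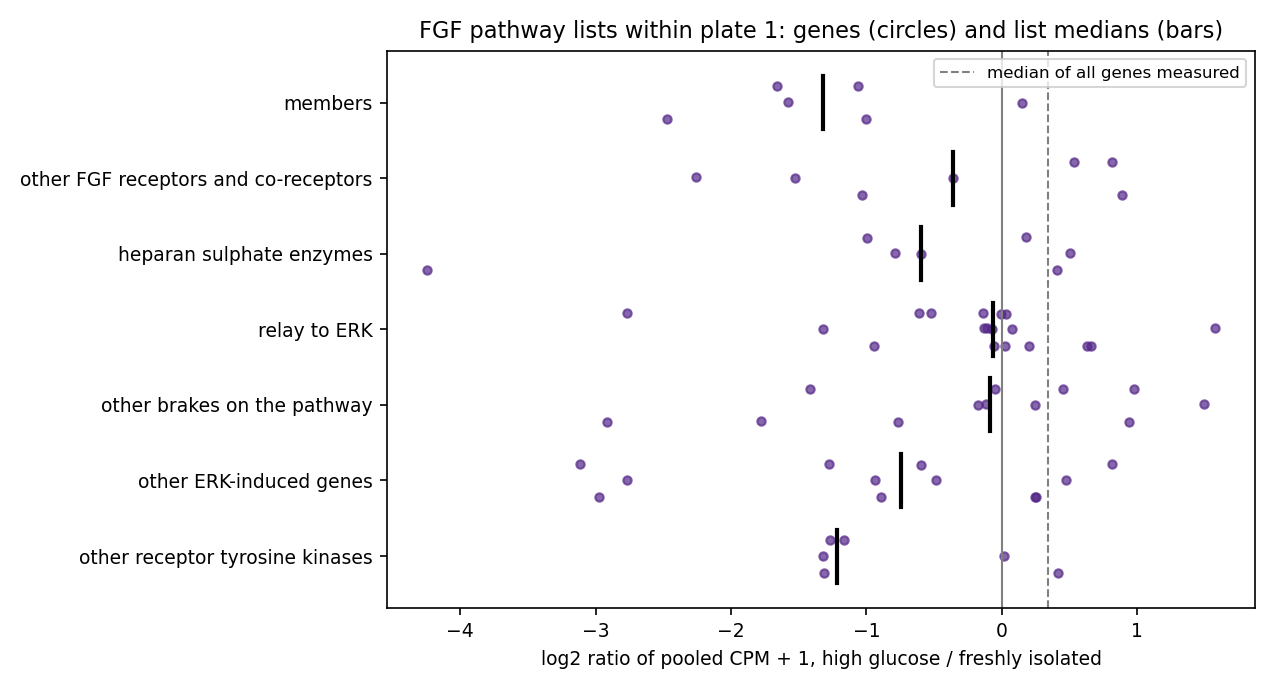
Log2 ratio of pooled CPM plus 1, high glucose over freshly isolated cells (horizontal axis), for the measured members and for 6 lists of FGF pathway genes. Circles are genes, black bars are list medians (-1.32 for the members, -0.06 for the relay to ERK) and the dashed line is the median of all measured genes (0.34).

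The genes whose levels most resembled each member were found over the 24 plate rows of all conditions, by Pearson's r of log2(CPM + 10) among 3951 genes with a mean of at least 50 CPM. The rows share plates, libraries and media, so these values describe the shared pattern over conditions. Spry1 was most like Nr4a3 (r = 0.904), Map7d1 (0.899) and Fosb (0.895). Nr4a3 and Fosb are immediate early transcription factors, and Fosb had 14.7, 16.7, 65.3 and 546 CPM in galactose, low glucose, high glucose and freshly isolated cells. Spry2 was most like Spry1 (0.792), ahead of Bbx (0.745) and Cdc42ep1 (0.731).

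Spred1 was most like Mcl1, a survival factor of the BCL2 family (0.925), Ptpn12, a tyrosine phosphatase (0.923), and the mitochondrially encoded mt-Nd4 (0.923). Mcl1 had 278, 257, 278 and 852 CPM in galactose, low glucose, high glucose and freshly isolated cells. Dusp6 was most like Scaf8 (0.800), Gm7973 (0.767), annotated as a pseudogene and so of uncertain counts, and Naa35 (0.765).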

How the data were processed

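Polyadenylated RNA of sorted single cells was measured with a modified CEL-Seq2 protocol, per the labels, with a well barcode and a 6-base molecule tag (UMI) in the first read. The authors deposited raw counts per gene and well without normalization. Collapse by UMI, aligner, counter, build and annotation were not given in the sources used here. edgeR is named, without version or role, per the submitters' processing notes. The condition of each of 457 wells came from the deposited well sheet. Wells with at least 500 counts and 250 genes were kept (456), with no doublet caller. Totals per cell and pool are in the report. Symbols came from GENCODE M21 for 21132 of 21216 identifiers, and 0.211% of counts had none.

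Counts were summed per condition and scaled to CPM, and pools were compared by ratio with exact conditional (Clopper-Pearson) 95% intervals. Intervals of levels are exact Poisson. They cover counting error only and were not adjusted over genes. Log2 ratios of lists add 1 CPM. Folds of a gene at 0 use a floor of 3 counts. Python 3.11.15 with numpy 2.4.6, pandas 2.3.3 and scipy 1.17.1 was used, and edgeR 4.0.16 for TMM factors of the 4 pools. The steps were tested on simulated data.

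The members and lists were chosen with earlier results of these data known. All members were to be named, and of each pathway list the 3 measured genes with most counts and, for each within-plate comparison, those with the highest and lowest ratio. Some of these were left out of the text. For each member with at least 50 CPM over plate rows, the 3 genes most like it were named. Thinned shares were first taken from 1 random draw. After that draw was seen to lie far from its expectation, they were replaced by the expectation over all draws, and the values of the first draw are given with the alternatives. The alternatives were TMM, median-of-ratios and spike-in scaling, weighting by cell or plate row, other minimums for wells and genes, a fold of 2, totals without mitochondrial genes, a tag-number correction, thinning, wells with other markers left out, and each plate row left out.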

Additional observations from a re-analysis of the deposited data

How the results depend on the processing

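Of 1033 recomputed member ratios, 994 stayed within the counting interval of the reported ratio. Many of these ratios left out a single plate row or changed few counts, and unmeasured genes had wide intervals. Most were therefore bound to stay, and the number is no measure of robustness. Of the 1033 ratios, 55 lay on the other side of 1. Of these 55, 7 had been past 1.5-fold and 48 had been within it or belonged to an unmeasured gene. Spike-in scaling turned the calls of Spry2 (1.51), Spred1 (1.02) and Etv5 (1.44) for high glucose over freshly isolated cells, Spry2 for low glucose (1.02), and Spry2 (1.26) and Etv5 (1.08) for galactose. It also took Dusp6, within the fold in CPM, to 2.55 in low glucose and 2.36 in galactose over freshly isolated cells. It gave 2 members higher and 1 lower in high glucose (all genes: 89.5% higher, 3.43% lower), 1 higher and 2 lower in low glucose (84.5% and 5.44%) and 1 higher and 2 lower in galactose (85.0% and 5.36%). The seeded single draw of 1000 counts per cell was made first, and the expectation over all draws replaced it after it was seen. This draw gave 3 members lower in high glucose than in freshly isolated cells (22.6% of genes): Fgfr4 (0.192), Spry1 (0.420) and Spry2 (0.497). The calls of Spred1 (0.759) and Etv5 (turned to 1.06) were lost. That draw gave 1 member higher (Spry1, 2.55; 20.5% of genes) and 1 lower (Dusp6, 0.567; 20.6%) in galactose than in low glucose, and 5 lower in low glucose than in high glucose (24.4%). In galactose over high glucose it gave 3 lower (24.3%): Spred1 (0.370), Dusp6 (0.463) and Etv5 (0.264), while Fgfr4 (0.694) and Spry1 (0.694) lost their calls. Spred1 was seen in 19.6% of high glucose cells and 22.5% of freshly isolated cells. The expectation over all draws gave 4 lower in high glucose than in freshly isolated cells (19.5% of genes), 0 past the fold in galactose over low glucose (2.84% higher, 2.38% lower), and 3 lower each in low glucose (14.0%) and galactose (14.6%) than in high glucose. Leaving out plate rows gave 0 to 1 members higher and 5 to 6 lower in high glucose than in freshly isolated cells, with Dusp6 higher without freshly isolated row C, and 0 to 0 past the fold between galactose and low glucose. With no expression minimum 1 member (Etv4) was higher in galactose than in low glucose and than in high glucose. Against high glucose, 1 member was lower in each plate 2 medium at a mean of 50 CPM (Spry1) and 1 at a fold of 2 (Fgfr4). At a fold of 2 Spry1 lost its call (0.558 in galactose, 0.516 in low glucose), and Fgfr4 was measured only through its level in high glucose. The shares of all genes in these settings are not given here. Where not stated, the cause was not tested. No paired analysis was possible because the plates hold different conditions and share only 1 replicate number. The 284109 counts of freshly isolated cells limit every ratio to them, and 1 library per condition leaves the spread between cultures and animals unmeasured.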

Other observations

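With the minimum lowered to a mean of 20 CPM over plate rows (6833 genes), Fgfr4 and Etv5 could also be compared with other genes. Fgfr4 was most like Spry1 (Pearson's r = 0.899 over 24 plate rows), then Map7d1 (0.886) and Hr (0.870). Etv5 was most like Itm2a (0.716), Creb3l1 (0.715) and Rps6ka3 (0.712), which encodes a kinase activated by ERK. Rps6ka3 had 15.2, 12.1, 18.0 and 77.4 CPM in galactose, low glucose, high glucose and freshly isolated cells. The rows share plates, libraries and media, and these values are a description.

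Row D of the freshly isolated cells, with 15 cells, held the lowest Spry1 (106 CPM) and Spred1 (158 CPM) of its condition and 0 counts of Fgfr4 and Dusp6. Its Etv5 and Spry2 counts were 1 each. Row E, with 17 cells, also held 0 counts of Dusp6 and 1 of Etv5.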
